A study of Schizosaccharomyces pombe with 261 samples.

Results

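The 10 genes described here encode regulators of translation and stress granule proteins of the fission yeast Schizosaccharomyces pombe. They were taken by systematic identifier and are 10 of the 7015 gene identifiers in the count files, and all 10 passed the filter on low counts that left 6172 genes for testing. By role they are the eIF2α kinases gcn2 (SPBC36B7.09), hri1 (SPAC20G4.03c) and hri2 (SPAC222.07c), the GATA-type transcription factor fil1 (SPCC1393.08), the initiation factor genes ded1 (SPCC1795.11), tif471 (SPAC17C9.03) and tif1 (SPAC1006.07), the poly(A)-binding protein gene pab1 (SPAC57A7.04c), and the stress granule protein genes vgl1 (SPCC550.14) and nxt3 (SPBP8B7.11). The RefSeq annotation calls ded1 sum3 and calls SPAC57A7.04c pabp, and it gives the symbol pab1 to an unrelated phosphatase subunit gene, so the identifiers decide which gene is meant.

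Translation of most mRNAs begins when eIF4F, made of the cap-binding protein eIF4E, the scaffold eIF4G and the RNA helicase eIF4A, brings the small ribosomal subunit to the cap, while eIF2 delivers the initiator tRNA. Stress slows this step through kinases that phosphorylate the α subunit of eIF2: in fission yeast Gcn2, Hri1 and Hri2 share this task, and the fall in eIF2 activity raises translation of Fil1, which activates amino acid synthesis genes much as Gcn4 does in budding yeast. mRNAs released from ribosomes gather with poly(A)-binding protein, eIF4G and RNA-binding proteins in stress granules, which form in fission yeast on heat shock.

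The study follows S. pombe cells grown at 30 °C and moved to 37.5 °C, and here 39 libraries of polyadenylated mRNA were used, 3 for each of 13 groups. Wild type (WT) was sampled after 0, 5 and 25 min of heat in series RNA1 and after 0, 2.5 and 5 min in series RNA2. In series RNA3 the labels are atf1Δ, pcr1Δ (each sampled at 0 and 5 min) and clr4Δ (sampled at 2.5 min as well). The transcription factors Atf1 and Pcr1 are partner bZIP proteins of the stress response, and Clr4 is the histone H3 lysine methyltransferase of heterochromatin. Every group, WT included, had mating type h+ and the alleles ade6-DN/N, leu1-32 and ura4-DS/E, with ura4+ placed at imr1L and ade6+ at otr1R in a centromere. The deletions were replacements by KanMX6 for atf1 and pcr1 and by NatMX6 for clr4, and the labels do not say how many clones were used.

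Libraries held between 6573143 and 12588425 counts in genes, and those of the 10 genes from 187 for hri1 to 51415 for tif1 in a library. The check of the deletions was incomplete. The atf1 mRNA had a mean of 131, 718 and 437 counts per 1000000 counts in genes (CPM, scaled by TMM) at 0, 5 and 25 min in WT of series RNA1, and of 128 and 168 CPM at 0 and 5 min in the libraries labelled atf1Δ. The pcr1 mRNA had 64.1, 363 and 124 CPM in that WT and 42.3 and 53.3 CPM in the libraries labelled pcr1Δ. Elsewhere at 0 and 5 min, atf1 had 213 and 572 CPM in WT of series RNA2, 364 and 772 with pcr1Δ, and 209 and 580 with clr4Δ. For pcr1 the values were 71.7 and 290 CPM in WT of series RNA2, 72.3 and 94.7 with atf1Δ, and 87.5 and 303 with clr4Δ. The clr4 mRNA went against the label, with 175, 153 and 110 CPM at 0, 2.5 and 5 min in the libraries labelled clr4Δ against 43 to 79 CPM in WT groups. Which parts of these genes were removed is not given, so those libraries are named by their labels throughout. Series RNA3 has no WT, so a difference between a label and WT cannot be told apart from a difference between series. The labels of series RNA3 share its name, but whether their libraries were made together is not given. A level here is relative to the other mRNAs of its library, so a change in the total amount of mRNA per cell is not measured.

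Before heat, the genes differed widely in level. Per kilobase of transcript, the mean of WT of series RNA1 at 0 min was 2174 CPM for tif1, which encodes eIF4A, and 943 CPM for ded1, a DEAD-box helicase that helps ribosomes scan structured leaders. It was 453 CPM per kilobase for pab1 and 291 for tif471, which encodes eIF4G, and between 174 and 192 for fil1, vgl1 and nxt3. The kinases were lowest, at 27.2 CPM per kilobase for gcn2, 24.4 for hri2 and 6.92 for hri1. Across the 13 groups the ratio of the highest to the lowest group mean was 6.61 for hri1, 5.03 for ded1, 3.82 for tif1, 3.36 for pab1, 2.99 for hri2, 2.95 for tif471, 2.18 for gcn2, 2.04 for fil1, 2.0 for nxt3 and 1.78 for vgl1. All but the 3 kinases had their lowest mean in WT at 25 min.

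**Figure D1:**
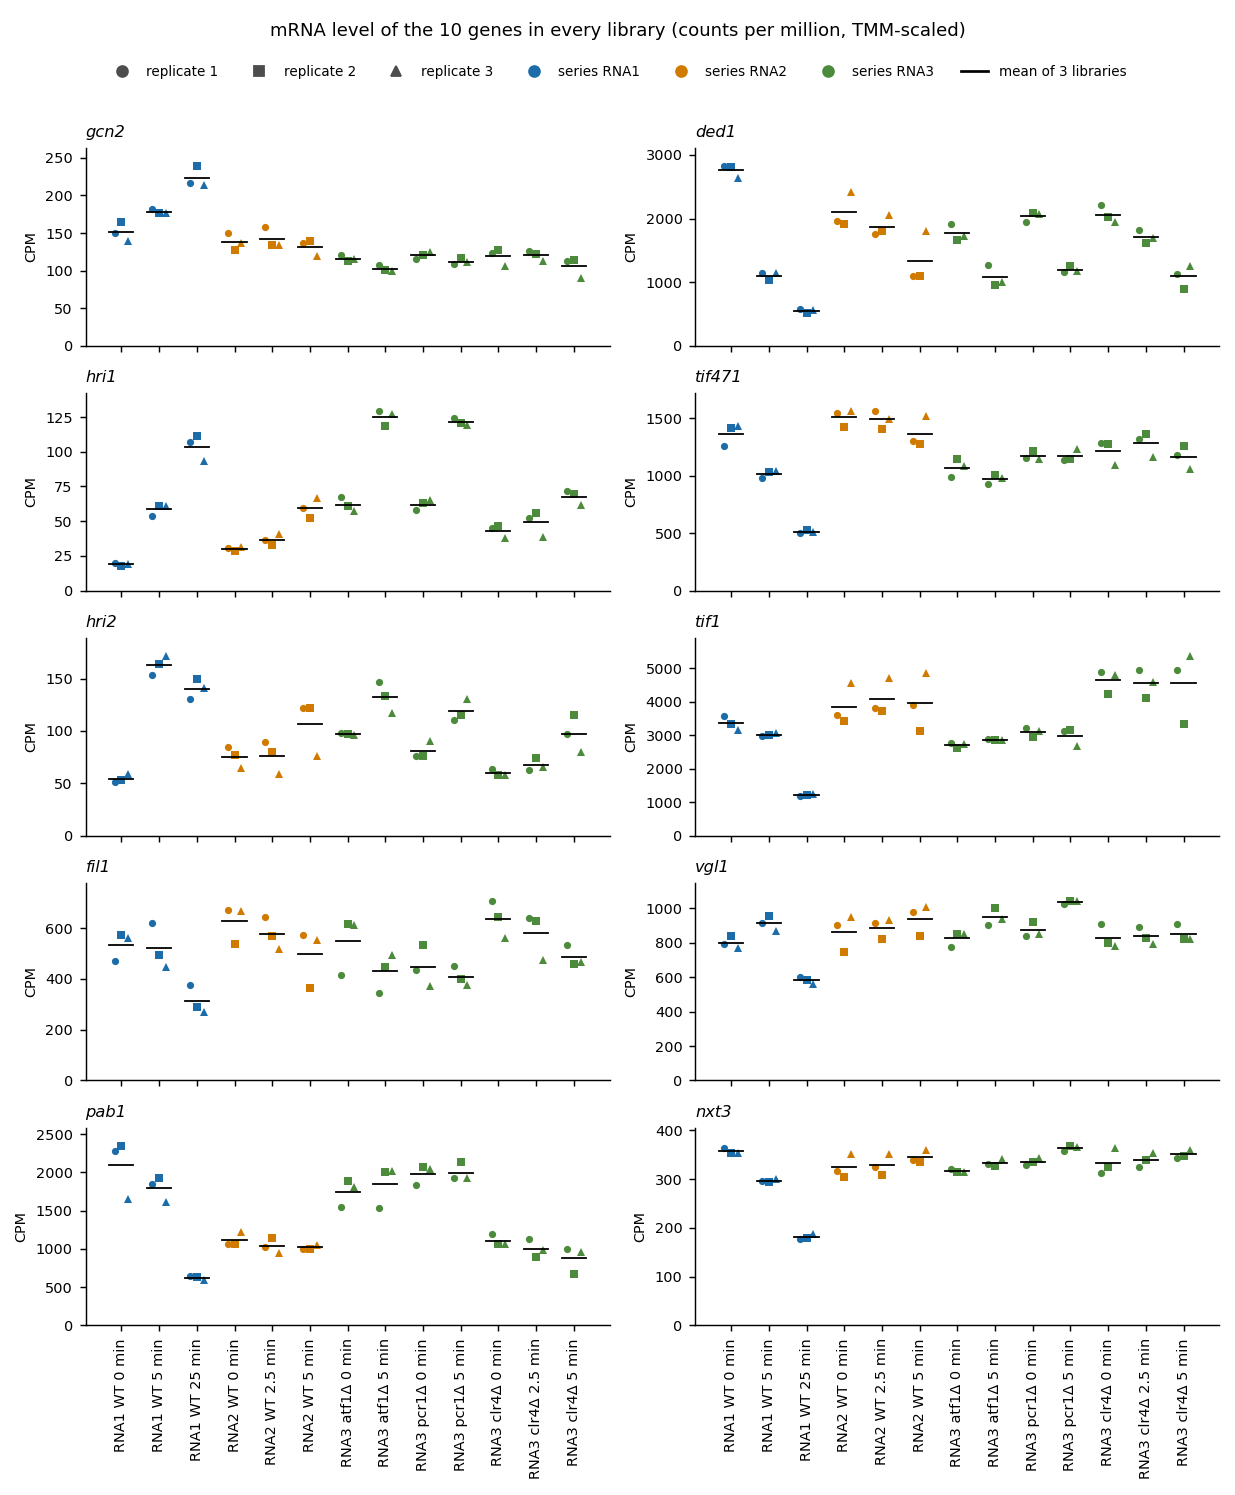
Levels of the 10 genes in CPM (linear axes from 0, TMM-scaled) for each of the 39 libraries, with 1 panel per gene; points are libraries, bars are group means, and groups run along the horizontal axis by series, strain label and time. The panel of hri1 spans 6.61-fold between group means and that of vgl1 1.78-fold.

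The 2 heme-regulated-inhibitor-type kinases, hri1 and hri2, rose together, and the stretches upstream of their annotated starts are printed here for that reason. hri1 lies on the minus strand at I:4818012-4820749 and hri2 on the minus strand at I:954279-956707 (build ASM294v2, from the files). The sequences are the 250 bases before each start in RefSeq (build ASM294v3), at I:4820652-4820901 for hri1 and I:956611-956860 for hri2, both read from the minus strand. The gene models in the files start 98 and 97 bases further upstream, so part of each stretch is transcribed in those models. Capitals mark a match to TTCNNGAA, a pair of inverted heat shock element units.
hri1: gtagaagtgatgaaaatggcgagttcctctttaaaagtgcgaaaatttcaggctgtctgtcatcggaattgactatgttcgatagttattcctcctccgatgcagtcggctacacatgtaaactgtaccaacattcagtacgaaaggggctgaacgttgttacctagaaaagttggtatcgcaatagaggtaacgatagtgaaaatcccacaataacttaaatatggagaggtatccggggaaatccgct
hri2: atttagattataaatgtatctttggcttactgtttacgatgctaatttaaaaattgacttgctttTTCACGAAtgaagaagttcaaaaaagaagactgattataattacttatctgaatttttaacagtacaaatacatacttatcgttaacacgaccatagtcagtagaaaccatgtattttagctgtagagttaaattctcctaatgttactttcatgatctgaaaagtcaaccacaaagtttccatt
The last base of the match in hri2 lies 178 bases before the start. Searched on both strands, TTCNNGAA was in 8.35%, GAANNTTC in 9.49% and TGACGT, the core of the element read by Atf1 and Pcr1, in 5.52% of the same windows of 5112 genes. TTCNNGAA was added to the search after the data were seen, and GAANNTTC and TTCNNGAA can overlap. TGACGT was in none of the 10 windows. The stretch of hri1 held none of the motifs, and the remaining match was GAANNTTC in gcn2 (plus strand, II:2396182-2396431, with the last base of the match 8 bases before the start). The model of gcn2 in the files starts 491 bases further upstream, so the whole window, match included, lies inside the counted model. The match is shown with the bases around it:
gcn2: acgagcgaGAAACTTCttcctcc

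In WT of series RNA1, hri1 and hri2 were among the mRNAs that rose steeply on heat. Levels of hri1 were 19.9, 17.9 and 19.1 CPM at 0 min, 53.6, 61.3 and 61.1 CPM at 5 min, and 107, 111 and 93.1 CPM at 25 min. The 3 times did not overlap, and each was above the one before. The rise was 3.09-fold at 5 min (log2 1.63 ± 0.12, SE here and below, n = 3 libraries a group, adjusted p = 1.39e-13, edgeR's quasi-likelihood test with Benjamini-Hochberg adjustment) and 5.47-fold at 25 min (log2 2.45 ± 0.12, adjusted p = 1.03e-18). Levels of hri2 were 50.9, 53.4 and 58.8 CPM at 0 min, 153, 164 and 172 CPM at 5 min, and 131, 150 and 141 CPM at 25 min. Both heated groups of hri2 lay above the unheated one and overlapped nothing in it, while their own ranges did not overlap, with 25 min the lower. The rise of hri2 was 2.99-fold at 5 min (log2 1.58 ± 0.15, adjusted p = 4.99e-11), and from 5 to 25 min its log2 difference was -0.21 ± 0.14 (adjusted p = 0.192), against a further rise of 0.82 ± 0.11 for hri1 (adjusted p = 6.44e-08). Blocking on replicate number gave that difference of hri2 an adjusted p of 0.0134, and with library totals alone as the scaling the difference was 0.05. Of the 6172 genes, 297 had a larger log2 change than hri1 at 5 min and 310 a larger one than hri2, and at 25 min the numbers were 239 and 569.

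The third kinase, gcn2 (II:2395941-2401552, plus strand), which is activated by uncharged tRNA, changed far less. Its levels were 149, 164 and 140 CPM at 0 min, 182, 176 and 177 CPM at 5 min, and 217, 239 and 214 CPM at 25 min in WT of series RNA1. The times did not overlap. The log2 change was 0.24 ± 0.09 at 5 min (adjusted p = 0.0213) and 0.56 ± 0.09 at 25 min (adjusted p = 6.81e-07). The call at 5 min was lost with library totals alone (0.03, adjusted p = 0.814), a scaling that moved the median of all genes by -0.211 in that comparison. It was also lost without replicate 1 at 5 min (0.22, adjusted p = 0.0766), replicate 2 at 5 min (0.23, adjusted p = 0.0604) or replicate 3 at 0 min (0.19, adjusted p = 0.121). The rise of gcn2 at 5 min was seen in series RNA1 alone. Its log2 change at 5 min was -0.07 in WT of series RNA2, -0.18 with atf1Δ, -0.10 with pcr1Δ and -0.17 with clr4Δ. None of these passed the test without the replicate block. A non-coding RNA gene on the opposite strand, SPNCRNA.1509, overlaps gcn2 over 545 bases and was itself at group means of 1.6 to 5 CPM. Per kilobase, the means at 0 min were 27.2 CPM for gcn2, 6.92 for hri1 and 24.4 for hri2, and at 25 min they were 40.2, 37.9 and 63.0 CPM. In this WT series hri1 thus came near gcn2, while hri2 moved above it. Elsewhere hri2 was above gcn2 before heat, at 33.7 against 24.8 CPM per kilobase in WT of series RNA2. With atf1Δ it was 43.4 against 20.8, with pcr1Δ 36.1 against 21.6 and with clr4Δ 26.8 against 21.4. Unheated hri1 was at 22.6 with both atf1Δ and pcr1Δ, but below gcn2 with clr4Δ (15.7) and in WT of series RNA2 (11.1).

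Counted together, 6 of the 10 genes passed the test at 5 min in WT of series RNA1, beside 48.4% of all genes tested. Of these 3 rose, which were the kinases, beside 24.9% of all genes, and 3 fell, which were ded1, tif471 and nxt3, beside 23.5%. With the block 8 passed, beside 57.7%. At 25 min all 10 passed, beside 67.3% of all genes. The 3 kinases were again higher, beside 33.9% of all genes, and the other 7 were lower, beside 33.5%. Between 5 and 25 min 9 of 10 passed, beside 58.1%. Comparisons of times within this series share libraries.

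**Figure D2:**
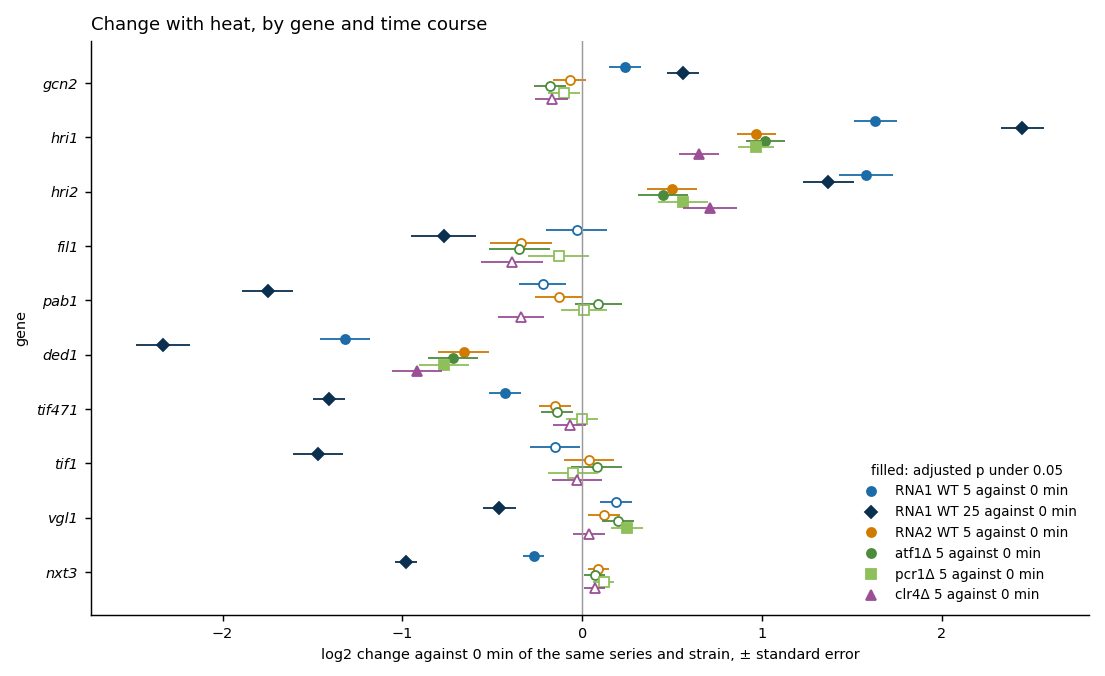
Log2 change against 0 min (TMM-scaled counts, edgeR) for each gene at 5 min in each series and strain label and at 25 min in WT of series RNA1; points are estimates, filled where the adjusted p was under 0.05, bars are ± 1 SE, and the line at 0 marks no change. At 25 min in WT the kinases lie above 0, up to 2.45 for hri1, and the other 7 genes below it, down to -2.33 for ded1.

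The mRNA of fil1 (III:811693-814708, plus strand) did not pass the test at 5 min. Its levels were 468, 571 and 559 CPM at 0 min, 619, 496 and 448 CPM at 5 min, and 376, 290 and 269 CPM at 25 min. The first 2 times overlapped, and 25 min lay below both. The log2 change was -0.03 ± 0.17 at 5 min (95% confidence interval -0.39 to 0.32, adjusted p = 0.901) and fell by 0.77 ± 0.18 at 25 min (adjusted p = 0.000246). Fil1 is known to be set mainly by translation, which these libraries do not measure.

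Genes of amino acid synthesis, the process that Fil1 activates, were mostly lower at 25 min. At 5 min 11 of the 42 tested were higher, a share close to the 24.9% of all genes, and 4 were lower, beside 23.5%, with a median log2 change of 0.10 beside -0.001 over all genes. At 25 min 2 were higher, beside 33.9% of all genes, and 29 lower, beside 33.5%, with a median of -0.52 beside 0.020. At 5 min met6, the homoserine O-acetyltransferase of methionine synthesis, rose by 0.69 and lys4, the homocitrate synthase of lysine synthesis, rose by 0.61 on the log2 scale. At 25 min the chorismate synthase gene aro2 fell by 2.06 and the phosphoserine phosphatase gene ser2 fell by 1.75. Among 7 genes of the pathway around Gcn2, gcn2 and fil1 included, 1 rose at 25 min, beside 33.9% of all genes, and 4 fell, beside 33.5%. cpc2, the RACK1 protein of the small ribosomal subunit, fell by 1.44 and yih1, which in budding yeast restrains Gcn2, fell by 0.68, while at 5 min yih1 fell by 0.64 (adjusted p = 5.13e-05).

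Of the initiation factor genes, ded1 (III:973999-976926, minus strand) had the largest fall at both times. Its levels were 2827, 2814 and 2642 CPM at 0 min, 1144, 1027 and 1138 CPM at 5 min, and 570, 510 and 565 CPM at 25 min in WT of series RNA1. Each time lay below the one before, with no overlap. The log2 change was -1.32 ± 0.14 at 5 min (adjusted p = 1.52e-09) and -2.33 ± 0.15 at 25 min (adjusted p = 1.56e-15). Of all genes tested, 79 had a lower log2 change than ded1 at 5 min and 45 at 25 min.

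The eIF4G gene tif471 (I:4491952-4496637, minus strand) had 1254, 1410 and 1432 CPM at 0 min, 979, 1027 and 1036 CPM at 5 min, and 504, 525 and 508 CPM at 25 min. It fell by 0.43 ± 0.09 at 5 min (adjusted p = 0.000114) and by 1.41 ± 0.09 at 25 min (adjusted p = 1.8e-15), with no overlap between times. The eIF4A gene tif1 (I:5085486-5087031, plus strand) had 3586, 3348 and 3150 CPM at 0 min, 2990, 3015 and 3054 CPM at 5 min, and 1190, 1212 and 1244 CPM at 25 min. The 5 min libraries of tif1 were below all unheated ones by a margin that did not pass the test (log2 -0.15 ± 0.14, adjusted p = 0.387), and at 25 min tif1 fell by 1.47 ± 0.14 (adjusted p = 6.35e-11). With library totals alone the difference of tif1 at 5 min was -0.36 (adjusted p = 0.00527).

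The poly(A)-binding protein gene pab1 (I:1540606-1545221, plus strand) did not pass the test at 5 min and fell at 25 min. It had 2273, 2348 and 1652 CPM at 0 min, 1846, 1921 and 1609 CPM at 5 min, and 650, 627 and 589 CPM at 25 min. The unheated and 5 min libraries overlapped, through replicate 3 of the unheated group, and all 25 min libraries were lower. The log2 difference at 5 min was -0.22 ± 0.13 (adjusted p = 0.172; 0.0388 with the replicate block; -0.42 and 0.000309 with library totals alone), and at 25 min it fell by 1.75 ± 0.14 (adjusted p = 2.99e-13). Without replicate 3 at 0 min the difference at 5 min was -0.37 (adjusted p = 0.0255). A gene on the opposite strand, SPAC57A7.05, overlaps the pab1 model over 1181 bases and had group means of 56 to 287 CPM. The strand setting of the counting is not given in the sources used here, so counts in that stretch are uncertain. The same limit holds for gcn2 and for shorter overlaps with opposite-strand genes. These were hri2 with mak16 (47 bases), vgl1 with rei1 (211 bases) and nxt3 with fta3 (70 bases). The model of pab1 in the files begins 2180 bases upstream of the RefSeq start, and its level per kilobase rests on that model.

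Initiation factor genes outside the 10 were mostly lower at 25 min, and few of them passed the test at 5 min. Of all genes, 23.5% were lower at 5 min and 33.5% at 25 min. Of 9 eIF3 subunit genes, 1 was lower at 5 min (tif313, by 0.22) and 9 at 25 min, with a median log2 change of -1.25, tif313 falling by 1.42 and tif306 by 1.38. Of 8 genes for subunits of eIF2 and its exchange factor eIF2B, the median was -0.05 at 5 min, and 7 were lower at 25 min, with a median of -0.83. tif213, the γ subunit of eIF2, fell by 1.46 and tif222, the β subunit of eIF2B, fell by 1.00. Of 7 genes of eIF4F and its helpers, 4 of them among the 10, 3 were lower at 5 min and 6 at 25 min, among them sce3, an eIF4B-like factor, by 0.33 and then 1.66, and tif45, the eIF4E gene, by 1.13 at 25 min. All 34 genes annotated as translation initiation factors, 2 of them among the 10, had a median of -0.10 at 5 min, with 1 higher and 5 lower. The 1 higher was mti2 (by 0.39), annotated as the mitochondrial factor IF-2Mt. At 25 min the median of the 34 was -1.08, with 0 higher and 29 lower. The 17 genes annotated as elongation or release factors had 2 higher and 1 lower at 5 min, and 2 higher and 12 lower at 25 min, with medians of 0.01 and -0.69. erf1, the release factor that reads stop codons, fell by 0.33 and then 1.56, and hbs1, which helps rescue stalled ribosomes, rose by 0.99 at 5 min.

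**Figure D3:**
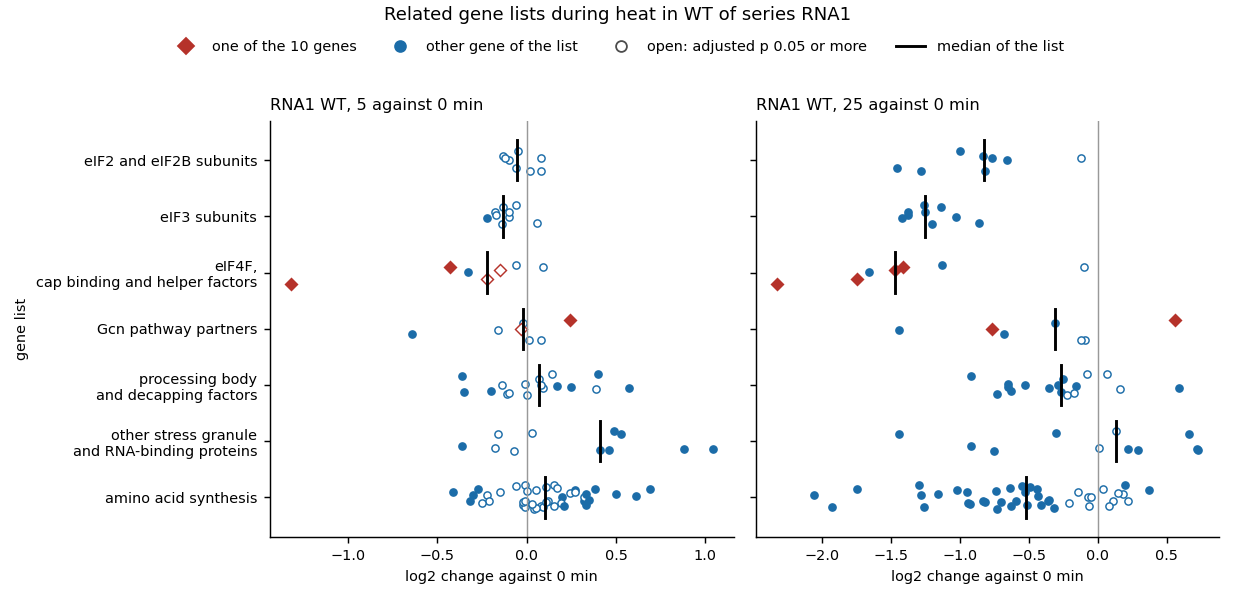
Log2 change at 5 and 25 min in WT of series RNA1 for each gene of 7 of the lists (points, the 10 genes as diamonds, open where the adjusted p was 0.05 or more), with the list median as a bar and a line at 0. The median of the eIF3 list moves from -0.13 to -1.25 between the times, and that of the other stress granule proteins from 0.41 to 0.13.

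In WT of series RNA1, nxt3 passed the test at 5 min and vgl1, the other stress granule gene of the set, did not. In series RNA2 and the labels of series RNA3, log2 changes at 5 min were 0.04 to 0.25 for vgl1. For nxt3 they were 0.07 to 0.12. The levels that follow are from WT of series RNA1. Vigilin, encoded by vgl1 (III:1216836-1221449, plus strand), is a KH-domain RNA-binding protein, and its mRNA had 791, 842 and 772 CPM at 0 min, 916, 959 and 869 CPM at 5 min, and 601, 584 and 561 CPM at 25 min. The 5 min libraries were highest and the 25 min ones lowest, with no overlap. The log2 difference at 5 min was 0.19 ± 0.09 (adjusted p = 0.0744; 0.00267 with the replicate block; -0.02 with library totals alone), and vgl1 fell by 0.46 ± 0.09 at 25 min (adjusted p = 2.64e-05). The mRNA of nxt3 (II:3652214-3654253, plus strand), which encodes a G3BP-like partner of the ubiquitin protease Ubp3, had 364, 354 and 353 CPM at 0 min, 296, 294 and 301 CPM at 5 min, and 177, 180 and 188 CPM at 25 min. It fell by 0.27 ± 0.06 at 5 min (adjusted p = 0.000656) and by 0.98 ± 0.06 at 25 min (adjusted p = 4.22e-15), with no overlap.

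Other stress granule and RNA-binding protein genes moved in both directions. Of 11, 6 were higher and 1 lower at 5 min with a median log2 change of 0.41, and 5 were higher and 4 lower at 25 min with a median of 0.13. Of all genes 24.9% were higher and 23.5% lower at 5 min, and 33.9% and 33.5% at 25 min. The pumilio family genes puf3 and puf4 rose by 1.04 (adjusted p = 4.29e-09) and 0.88 (adjusted p = 6.73e-10) at 5 min, and cpc2 and upf1, the nonsense-mediated decay helicase, fell by 1.44 and 0.92 at 25 min. Of 17 genes of processing bodies and decapping, 4 were higher and 3 lower at 5 min with a median of 0.07, shares no larger than those of all genes, and 1 was higher and 11 lower at 25 min with a median of -0.27. pdc1, a decapping activator, rose by 0.57 and lsm4 by 0.40 at 5 min, and the deadenylase gene ccr4 fell by 0.63 at 25 min. Some genes, such as upf1 and cpc2, stand in more than 1 list.

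At 2.5 min in WT of series RNA2 none of the 10 genes passed edgeR's test, beside 1.73% of all genes. DESeq2 called 0, and 1 had an unadjusted p under 0.05 in edgeR's test, beside 615 of the 6172 genes. That gene was hri1, at 30.7, 28.6 and 31.5 CPM at 0 min and 36.5, 32.5 and 41.1 CPM at 2.5 min. The heated libraries were all higher, by 0.28 ± 0.11 on the log2 scale (adjusted p = 0.312). With the replicate block its adjusted p was 0.0355, beside 7.83% of all genes called. In the libraries labelled clr4Δ at 2.5 min 0 of the 10 passed with edgeR, beside 1.57% of all genes, and 0 with DESeq2. At an unadjusted p under 0.05 there were 0, beside 725 of the 6172 genes, and the log2 difference of hri1 was 0.19 ± 0.11. The median log2 change at 2.5 min of the 9 gene lists described above lay between -0.02 and 0.07 in WT of series RNA2.

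At 5 min in WT of series RNA2 hri1 and hri2 were higher and ded1 was lower, which is 3 of 10 genes past the test beside 27.2% of all genes. Levels at 5 min were 59.4, 52.3 and 66.8 CPM for hri1, against an unheated high of 31.5. For hri2 they were 121, 121 and 75.9 CPM, against 84.3, 76.8 and 64.1 CPM at 0 min. Replicate 3 of hri2 at 5 min lay inside the unheated range, and the other two were above it. The log2 rises were 0.97 ± 0.11 for hri1 (adjusted p = 3.03e-08) and 0.50 ± 0.14 for hri2 (adjusted p = 0.00723), and ded1 fell by 0.66 ± 0.14 (adjusted p = 0.00041). ded1 had 1968, 1908 and 2423 CPM at 0 min and 1096, 1091 and 1801 CPM at 5 min, so that replicate 3 was high at both times. The groups of ded1 did not overlap. The call of hri2 was lost with library totals alone (adjusted p = 0.0966), with only the compared groups fitted (adjusted p = 0.0905) and in the second deposited table (0.47, adjusted p = 0.0805). Leaving out replicate 1 or 2 at 5 min or replicate 3 at 0 min also ended it (0.40 in each, adjusted p from 0.0641 to 0.068), and that of ded1 with only the compared groups (adjusted p = 0.0607). With the replicate block 5 of the 10 passed, beside 39.4% of all genes, with fil1 (-0.35, adjusted p = 0.0188) and tif471 (-0.15, adjusted p = 0.0468) added. From 2.5 to 5 min 3 of 10 passed, beside 13.5% of all genes, with hri1 rising by 0.69 ± 0.11, hri2 by 0.48 ± 0.14 and ded1 falling by 0.49 ± 0.14. Both hri2 and ded1 lost that call with only the compared groups fitted (adjusted p = 0.238 and 0.241) and in the second table (0.148 and 0.0692), and hri2 with library totals alone (0.41, adjusted p = 0.133). They also lost it without replicate 1 at 5 min (0.38 and -0.37), replicate 2 at 5 min (0.37 and -0.37) or replicate 3 at 2.5 min (0.33 and -0.42).

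The heat response of WT at 5 min differed between the series. The difference of the log2 changes, series RNA2 minus series RNA1, was -1.08 ± 0.20 for hri2 (adjusted p = 0.000433), -0.65 ± 0.16 for hri1 (adjusted p = 0.0074), 0.66 ± 0.20 for ded1 (adjusted p = 0.0272) and 0.35 ± 0.09 for nxt3 (adjusted p = 0.00864). These were 4 of the 10, beside 9.28% of all genes, and for each of the 4 the change in series RNA2 was the smaller in size. With the block 6 of 10 passed, beside 22.8% of all genes, gcn2 (-0.31, adjusted p = 0.00661) and tif471 (0.28, adjusted p = 0.0169) among them. Paired by number, the log2 ratio of 5 to 0 min for nxt3 was -0.30, -0.27 and -0.23 in series RNA1 and 0.09, 0.15 and 0.03 in series RNA2. The difference of ded1 was 0.39 (adjusted p = 0.171) without replicate 3 at 5 min of series RNA2, and its call was also lost with only the compared groups (0.71, adjusted p = 0.103) and without replicate 1 or 2 at 0 min of either series or replicate 2 at 5 min of series RNA1 (0.60 to 0.64, adjusted p from 0.0536 to 0.0774). Genes chosen for a 2-fold change in series RNA1 at 5 min are given for scale: the median log2 ratio of the 524 higher ones was 0.66 to 0.90 in the pairs of series RNA2 and 1.46 to 1.61 in those of series RNA1, which chose them. For the 210 lower ones it was -0.86 to -0.60 and -1.17 to -1.04.

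**Figure D4:**
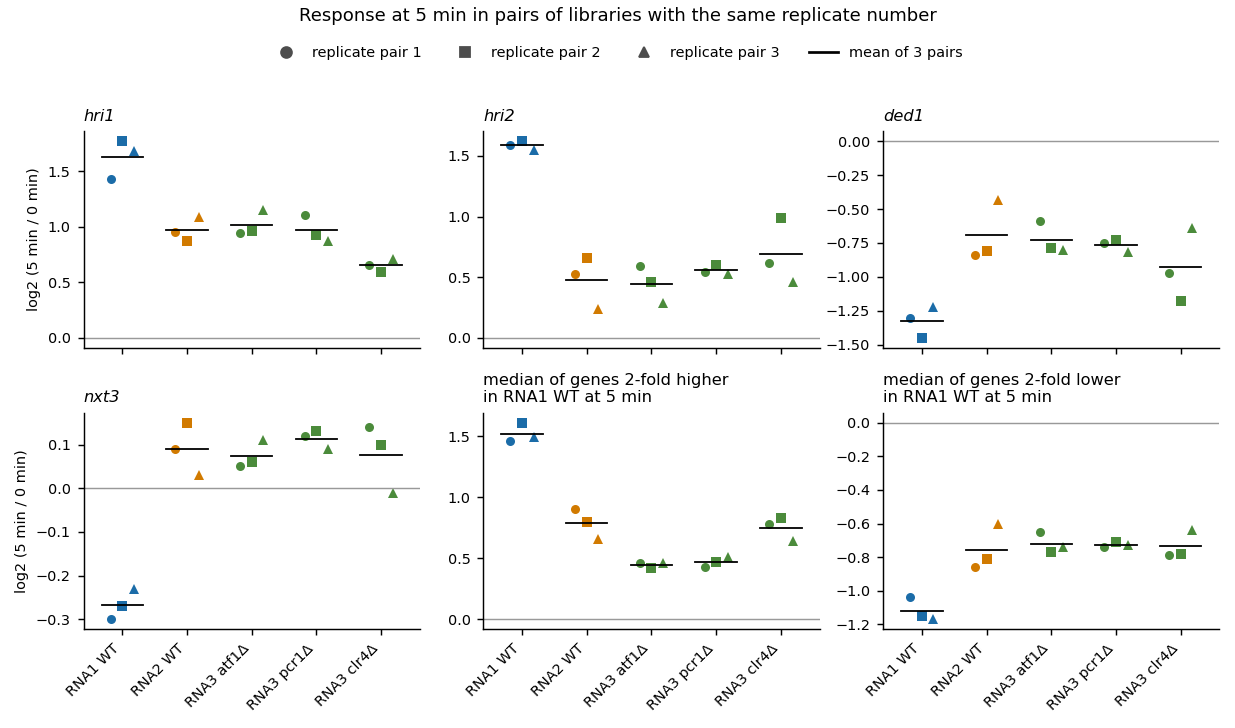
Log2 ratio of 5 to 0 min (CPM) for each pair of libraries with the same replicate number, by series and strain label, for hri1, hri2, ded1 and nxt3, and the median ratio of the genes that were 2-fold higher or lower at 5 min in series RNA1; points are pairs and bars are means of 3 pairs. For hri2 the 3 pairs of series RNA1 lie at 1.55 to 1.62, and all 12 others lie at 0.24 to 0.99.

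hri1, hri2 and ded1 passed the test at 5 min in the libraries labelled atf1Δ, pcr1Δ and clr4Δ as well. With the label atf1Δ, hri1 went from 67.3, 60.9 and 57.3 CPM to 129, 119 and 127 CPM. It rose by 1.02 ± 0.11 (adjusted p = 3.64e-09), with no overlap. In the same libraries hri2 rose by 0.45 ± 0.14 (adjusted p = 0.0133), from 97.6, 96.6 and 96.02 CPM to 147, 133 and 117 CPM, and ded1 fell by 0.72 ± 0.14 (adjusted p = 0.000151). These 3 of 10 stood beside 29.9% of all genes. The call of hri2 was lost with library totals alone (0.28, adjusted p = 0.214) and without replicate 1 at 5 min (0.37, adjusted p = 0.0673). With the block 6 passed, beside 45.6% of all genes, with gcn2 (-0.18, adjusted p = 0.0153), fil1 (-0.35, adjusted p = 0.0177) and vgl1 (0.20, adjusted p = 0.00297) added.

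With the label pcr1Δ, hri1 went from 57.7, 63.1 and 65.2 CPM to 124, 121 and 119 CPM, a rise of 0.97 ± 0.10 (adjusted p = 8.6e-09). hri2 rose by 0.56 ± 0.14 (adjusted p = 0.0027), from 76.0, 75.6 and 90.1 CPM to 111, 115 and 130 CPM, and ded1 fell by 0.77 ± 0.14 (adjusted p = 6.3e-05). Neither kinase overlapped between the times. vgl1 also rose, by 0.25 ± 0.09 (adjusted p = 0.0328), which made 4 of 10 beside 27.4% of all genes. The call of vgl1 was lost with library totals alone (0.14, adjusted p = 0.154) and without any library of the label but replicate 2 at 0 min (0.21 to 0.26, adjusted p from 0.053 to 0.134). With the block 5 passed, beside 42.9% of all genes, with nxt3 (0.12, adjusted p = 0.0357) added.

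With the label clr4Δ, hri1 went from 45.4, 46.3 and 37.6 CPM at 0 min to 71.8, 69.8 and 61.5 CPM at 5 min, a rise of 0.65 ± 0.11 (adjusted p = 1.76e-05). hri2 rose by 0.71 ± 0.15 (adjusted p = 0.000261), from 63.1, 58.0 and 57.9 CPM to 97.1, 115 and 79.5 CPM, and ded1 fell by 0.92 ± 0.14 (adjusted p = 4.21e-06). Neither kinase overlapped between the times. The count was 3 of 10, beside 30.2% of all genes, and 6 with the block, beside 44.6%. The block added gcn2 (adjusted p = 0.0216), fil1 (adjusted p = 0.00868) and pab1 (-0.35, adjusted p = 0.00171). Without the block the log2 change was -0.17 for gcn2 and -0.39 for fil1. From 2.5 to 5 min the same 3 genes passed, beside 16.0% of all genes. hri1 lost that call with only the compared groups fitted (adjusted p = 0.0933). hri2 lost it there (adjusted p = 0.0577), with library totals alone (0.0737), in the second table (0.0895) and without replicate 2 at 5 min (0.39, adjusted p = 0.0908). In the 3 labels of series RNA3 and in series RNA2 the median log2 change of the 9 eIF3 genes at 5 min lay between 0.03 and 0.11, and 5 to 7 of the 11 other stress granule genes rose in each. The shares of all genes that rose were 14.1% in series RNA2, 12.6% with atf1Δ, 12.5% with pcr1Δ and 16.2% with clr4Δ.

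Set against WT as the mean of both series, the response at 5 min differed for hri2 with the label atf1Δ (-0.59 ± 0.17, adjusted p = 0.0239), 1 of 10 beside 8.96% of all genes. It differed for hri1 with the label clr4Δ (-0.65 ± 0.14, adjusted p = 0.00585), 1 of 10 beside 2.62%. With the label pcr1Δ 0 of 10 passed edgeR's test, beside 7.19%. At an unadjusted p under 0.05 there were 4, beside 1098 of the 6172 genes. DESeq2 called 2, and its count over all genes is not given here. These differences depended on which WT was used. Against WT of series RNA1 alone, that of hri1 was -0.61 with atf1Δ (adjusted p = 0.005) and -0.66 with pcr1Δ (adjusted p = 0.00257), and that of hri2 was -1.02 with pcr1Δ (adjusted p = 0.000302) and -0.87 with clr4Δ (adjusted p = 0.00324). Against WT of series RNA2 alone, that of hri2 was -0.05 with atf1Δ (adjusted p = 0.995) and 0.05 with pcr1Δ (adjusted p = 1), and that of hri1 was -0.32 with clr4Δ (adjusted p = 1). The difference of hri2 with the label atf1Δ also lost its call with library totals alone (-0.60, adjusted p = 0.0887) and without any 1 of 7 libraries. These were replicate 2 at 5 min of series RNA1, replicates 1 and 2 at 5 min of series RNA2, and replicates 1 and 2 at 0 min and 2 and 3 at 5 min of that label, and the difference was then -0.59 to -0.48 (adjusted p from 0.0505 to 0.152). That of hri1 with clr4Δ lost it with library totals alone (-0.56, adjusted p = 0.0509).

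With the replicate block, more of these differences from the mean of both WT series passed. For atf1Δ gcn2 (-0.26, adjusted p = 0.00886), hri1 (-0.28, adjusted p = 0.0322) and nxt3 (0.16, adjusted p = 0.0356) were added, beside 17.9% of all genes. Against WT of series RNA2 alone, without the block, the signs of hri1 (0.05) and nxt3 (-0.01) turned. For pcr1Δ 4 passed, beside 17.6%, which were hri1 (-0.33, adjusted p = 0.0113), hri2 (-0.48, adjusted p = 0.000517), tif471 (0.29, adjusted p = 0.00569) and nxt3 (0.20, adjusted p = 0.00841), and against that WT alone hri2 turned (0.05). For clr4Δ gcn2 (-0.26, adjusted p = 0.0168), hri2 (-0.34, adjusted p = 0.0228), tif471 (0.22, adjusted p = 0.0392) and nxt3 (0.16, adjusted p = 0.0444) were added, beside 14.6%, and against that WT alone hri2 (0.21) and nxt3 (-0.02) turned. Between labels of series RNA3, where no WT enters, 0 of the 10 responses differed by edgeR's test, beside 2.48% of all genes for atf1Δ minus clr4Δ and 2.15% for pcr1Δ minus clr4Δ. DESeq2 called 0 in both. In edgeR's test 2 and 1 had an unadjusted p under 0.05, beside 829 and 631 of the 6172 genes. With the block hri1 (0.37, adjusted p = 0.0199) and pab1 (0.43, adjusted p = 0.0217) passed for atf1Δ minus clr4Δ, beside 12.3% of all genes. Without it the 95% confidence interval of that difference for hri1 was 0.06 to 0.67. Outside the 10 genes, hbs1 had a smaller response with the label atf1Δ than the mean of both WT series (-0.61 ± 0.14, adjusted p = 0.0021). This difference of hbs1 was not followed against either WT series alone. The arginine synthesis gene arg7 differed between pcr1Δ and clr4Δ (0.65 ± 0.18, adjusted p = 0.0446).

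Unheated levels differed among strain labels and series. hri1 was lowest in WT of series RNA1, at up to 19.9 CPM, then in WT of series RNA2 at 28.6 to 31.5, the label clr4Δ at 37.6 to 46.3 and the labels atf1Δ and pcr1Δ at 57.3 to 67.3 CPM. No library of those 4 ranges overlapped another range. The 2 WT series alone differed by 0.67 ± 0.12 for hri1 (adjusted p = 0.000121) and -0.90 ± 0.13 for pab1 (adjusted p = 1.15e-05), and 4 of 10 differed beside 23.6% of all genes, the others being hri2 (0.47) and ded1 (-0.39). The call of hri2 was lost without replicate 1 or 2 of either series (0.37 to 0.45, adjusted p from 0.0506 to 0.105) and with library totals alone (0.0547). That of ded1 was lost without any of these or replicate 3 of series RNA1 (-0.43 to -0.33, adjusted p from 0.0516 to 0.136) and with only the compared groups fitted (0.0818). Against the mean of WT, hri1 was higher by 1.37 ± 0.09 with atf1Δ (adjusted p = 1.16e-13), by 1.37 ± 0.09 with pcr1Δ (adjusted p = 1.25e-13) and by 0.84 ± 0.10 with clr4Δ (adjusted p = 1.43e-07). The counts were 6 of 10 for atf1Δ beside 44.5% of all genes, 5 for pcr1Δ beside 38.3% and 5 for clr4Δ beside 24.6%. Against WT of series RNA2 alone the count for clr4Δ was 2, and far fewer of all genes passed there too, as given in the closing section.

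Other genes also differed from the mean of WT before heat. With atf1Δ hri2 was higher (0.60 ± 0.12, adjusted p = 0.000144), and gcn2 (-0.32 ± 0.08), ded1 (-0.45 ± 0.12), tif471 (-0.42 ± 0.08) and tif1 (-0.41 ± 0.12) were lower. The call of ded1 was lost against WT of series RNA2 alone (-0.25, adjusted p = 0.151) and that of tif1 against WT of series RNA1 alone (-0.31, adjusted p = 0.0706). With pcr1Δ pab1 (0.37 ± 0.11) and hri2 (0.34 ± 0.12) were higher, and gcn2 (-0.26 ± 0.08) and tif471 (-0.29 ± 0.08) were lower. Against WT of series RNA1 alone pab1 was at -0.08 (adjusted p = 0.677), and against that of series RNA2 alone hri2 was at 0.10 (adjusted p = 0.607) and gcn2 at -0.20 (adjusted p = 0.0746). hri2 also lost its call with library totals alone (0.28, adjusted p = 0.141), without replicate 3 of WT series RNA2 (0.29, adjusted p = 0.0733) and without replicate 3 of pcr1Δ (0.24, adjusted p = 0.209), and gcn2 without replicate 1 of pcr1Δ (-0.22, adjusted p = 0.0601). With clr4Δ tif1 was higher (0.37 ± 0.12) and gcn2 (-0.28 ± 0.08), pab1 (-0.46 ± 0.12) and tif471 (-0.24 ± 0.08) were lower. Against WT of series RNA2 alone these were 0.27, -0.22 and -0.01 for tif1, gcn2 and pab1 (adjusted p = 0.308, 0.173 and 0.978), and tif471 was at -0.17 against WT of series RNA1 alone (adjusted p = 0.134). Without replicate 3 of clr4Δ, gcn2 (-0.21, adjusted p = 0.0754), tif471 (-0.17, adjusted p = 0.139) and tif1 (0.34, adjusted p = 0.0697) lost their calls, and tif1 did so without replicate 1 of clr4Δ or replicate 2 of WT series RNA2 (0.33 in both). Only the compared groups gave tif471 an adjusted p of 0.0863 and tif1 one of 0.064.

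Within series RNA3 the unheated levels differed for 4 of 10 genes between atf1Δ and clr4Δ, beside 46.2% of all genes. They differed for 5 between pcr1Δ and clr4Δ, beside 43.4%. The second deposited table covered clr4Δ and WT of series RNA2, but neither atf1Δ nor pcr1Δ. Strain and a possible batch difference between these labels cannot be told apart. Against clr4Δ, hri1 was higher by 0.52 ± 0.11 with atf1Δ (adjusted p = 0.00022) and 0.53 ± 0.11 with pcr1Δ (adjusted p = 0.000214). tif1 was lower, by -0.78 ± 0.14 with atf1Δ (adjusted p = 3.3e-05) and -0.59 ± 0.14 with pcr1Δ (adjusted p = 0.00105). hri2 was higher by 0.70 ± 0.14 with atf1Δ (adjusted p = 0.000195) and by 0.44 ± 0.14 with pcr1Δ (adjusted p = 0.0149), the latter lost without replicate 3 of pcr1Δ (0.34, adjusted p = 0.0941). pab1 had 1543, 1885 and 1808 CPM with atf1Δ and 1834, 2065 and 2039 CPM with pcr1Δ, against 1192, 1065 and 1069 CPM with clr4Δ, and WT of series RNA2 had 1064, 1062 and 1225 CPM. The atf1Δ and pcr1Δ libraries did not overlap those of clr4Δ and WT of series RNA2, but they overlapped WT of series RNA1, at 1652 to 2348 CPM. Against that WT alone the differences were -0.26 with atf1Δ and -0.08 with pcr1Δ. The differences from clr4Δ were 0.66 ± 0.13 (adjusted p = 0.000147) and 0.84 ± 0.13 (adjusted p = 6.04e-06). fil1 was lower with pcr1Δ than with clr4Δ (-0.51 ± 0.17, adjusted p = 0.0181), a call lost without replicate 1 (-0.47, adjusted p = 0.0608) or 3 of pcr1Δ (-0.40, adjusted p = 0.105) or replicate 1 of clr4Δ (-0.44, adjusted p = 0.0783).

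Over the 13 group means of log2 (CPM + 1), as a description whose points share series and normalization, hri1 and hri2 had a Pearson correlation of 0.78, and ded1 ran against both (-0.79 and -0.84). gcn2 had 0.26 with hri2 and -0.15 with hri1. tif471 had 0.89 with tif1 and 0.88 with nxt3, whereas pab1 had 0.09 with tif1. The genes most like hri1 among 4898 were hmt1 (0.972), xks1 (0.957) and glo1 (0.953), and those most like hri2 were lub1 (0.971), ppk8 (0.966) and the proteasome subunit gene rpn6 (0.965). For gcn2 they were rna4 (0.964), ppk27 (0.961) and SPCC777.02 (0.945), and for fil1 they were elo2 (0.965), pdr16 (0.931) and agn1 (0.931).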

How the data were processed

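Of 261 samples the 39 mRNA-seq libraries were used; 222 others were not analysed here. According to the labels' protocols, total RNA came from hot phenol extraction and the library kit was KAPA mRNA HyperPrep. The submitters' processing notes name STAR, Bowtie 0.12.9, deepTools, Trimmomatic 0.33 and bedtools 2.17.0, with build ASM294v2. The main files hold counts per gene that the authors deposited, 1 file per library, with the summary lines that STAR writes. A second table deposited by the authors holds a coverage signal per gene for 18 of the libraries (49.8 units per count). Gene lengths deposited by the authors in that table gave the CPM per kilobase. Names and products came from RefSeq (ASM294v3) for 6845 identifiers.

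Counts were fitted in R 4.3.3 with edgeR 4.0.16: filterByExpr (minimum count 10, minimum total 15; 6172 genes kept), TMM, 1 mean per group over 39 libraries (26 residual degrees of freedom), and 2-sided quasi-likelihood F-tests adjusted by Benjamini-Hochberg over the 6172 genes, with a threshold of 0.05 on the adjusted p. CPM are TMM-scaled, and SE is the log2 change divided by the square root of F. WT at 5 and 0 min was the mean of both series where a label was compared with it. An edgeR test planned for the second table was replaced, as its values are no counts, by limma-trend (limma 3.58.1) on log2 of the scaled signal plus 50, over 6150 genes whose mean signal reached 500. DESeq2 1.42.0, other scalings, no filter, only the compared groups, the replicate number as a block and each library left out were alternatives. Counts were also simulated for the 5 against 0 min comparison of series RNA1. In them 100 genes changed by a log2 of 1 and 100 by 0.5, in both directions. The changed genes were drawn from those above about 5 CPM in unheated WT of series RNA1, whose means all groups were given. All other genes were unchanged, and libraries were drawn independently. The test called 98% of changes of 1 and 77% of those of 0.5, with 4 false calls among the unchanged genes of the 6172. The shares called do not cover genes of lower level. In the data 48.4% of genes were called in that comparison, so the number of false calls does not carry over to it.

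Depth was 6573143 to 12588425 counts in genes. Reads mapping to several places were 6.80 to 21.2% and reads outside genes 1.19 to 2.49%, and both stayed out of library sizes. Nothing in the labels tells whether replicates came from separate cultures, so p-values measure the spread between these libraries, which exceeded counting noise (chi-square per degree of freedom 5.48 to 61.1). Deviations of same-numbered libraries within a series and strain had correlations of 0.143 to 0.777, against -0.646 to 0.372 for different numbers. Deviations from a group mean cancel out, which by itself pushes the values for different numbers down. With atf1Δ the same-number values were 0.692, 0.329 and 0.308, and different numbers reached 0.372. With pcr1Δ they were 0.632, 0.143 and 0.25, and different numbers reached 0.35. Pairing is thus uncertain in those labels. The numbers were taken as pairs only in the blocked fit and the paired ratios. Level comparisons at 0 min between groups had no blocked fit.

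The 10 genes and all lists were chosen with earlier results of these data known. Genes outside the 10 were named by rule: atf1, pcr1 and clr4, per list up to 2 genes of smallest p in the 5 min, 25 min and response comparisons, and the 3 genes most like each of gcn2, hri1, hri2 and fil1 by Pearson correlation with a mean of at least 10 CPM. Lists were written by name or, for the last 2, by annotated product. Names matched were 8 of 8 (eIF2 and eIF2B), 9 of 17 (eIF3), 7 of 9 (eIF4F), 7 of 8 (Gcn2 pathway), 17 of 17 (processing bodies), 11 of 12 (stress granules, where 1 name that matched another gene was dropped) and 42 of 46 (amino acids). The comparison of the WT responses of both series, the use of either WT alone and the motif TTCNNGAA were added after the data were seen.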

Additional observations from a re-analysis of the deposited data

Results flagged for a closer look

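The response to heat at 5 min, as a difference of log2 changes tested in the same edgeR fit, differed between groups for 4 of the 10 genes. Between the WT series, RNA2 minus RNA1, it was -0.65 for hri1, -1.08 for hri2, 0.66 for ded1 and 0.35 for nxt3, beside 9.28% of all genes called. The difference of ded1 was 0.39 (adjusted p = 0.171) without replicate 3 at 5 min of series RNA2, which ended its call. For hri2 the label atf1Δ minus the mean of WT gave -0.59 (8.96% of all genes called), and it was -0.05 against WT of series RNA2 alone. For hri1 the label clr4Δ minus the mean of WT gave -0.65 (2.62% called), and it was -0.32 against WT of series RNA2 alone. What moves the series apart was not tested, and for the labels strain and series cannot be told apart.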

How the results depend on the processing

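Counts below are of all genes and of the 10 genes, first as reported and then under the alternative. With library totals alone all genes went from 107 to 71 (WT series RNA2, 2.5 min) and from 162 to 81 (response, clr4Δ minus WT); the 10 genes went from 3 to 5 (atf1Δ and clr4Δ at 5 min) and from 1 to 0 (responses of atf1Δ and clr4Δ minus WT). Fitting only the compared groups took all genes from 107 to 32, 834 to 273 and 1678 to 1092 (series RNA2: 2.5 against 0, 5 against 2.5 and 5 against 0 min), 97 to 55, 988 to 404 and 1865 to 1063 (the same for clr4Δ), 162 to 50 (response, clr4Δ minus WT), 573 to 335 (response, WT RNA2 minus RNA1) and 1519 to 1012 (level, clr4Δ against WT), and the 10 genes from 3 to 1 (series RNA2, 5 against 2.5 and 5 against 0 min, and clr4Δ, 5 against 2.5 min) and 5 to 3 (level, clr4Δ against WT). With the replicate block all genes went from 107 to 483 and 834 to 1557 (series RNA2, 2.5 against 0 and 5 against 2.5 min), 1846 to 2817 (atf1Δ), 1691 to 2648 (pcr1Δ), 97 to 582 and 988 to 1811 (clr4Δ, 2.5 against 0 and 5 against 2.5 min); for responses from 553 to 1107, 444 to 1088 and 162 to 900 (atf1Δ, pcr1Δ and clr4Δ minus WT), 153 to 760 and 133 to 494 (atf1Δ and pcr1Δ minus clr4Δ) and 573 to 1406 (WT RNA2 minus RNA1). The 10 genes went with the block from 0 to 1 (series RNA2, 2.5 min), 3 to 5 (series RNA2, 5 min), 3 to 6 (atf1Δ and clr4Δ at 5 min), 1 to 4, 0 to 4 and 1 to 5 (responses minus WT) and 0 to 2 (response, atf1Δ minus clr4Δ). The second table gave 1 in place of 3 of the 10 genes (series RNA2, 5 against 2.5 min). DESeq2 gave 154 in place of 97 genes (clr4Δ, 2.5 min) and 2 in place of 0 of the 10 (response, pcr1Δ minus WT). Against WT of series RNA1 alone, responses gave 994, 1016 and 846 genes and 5 of the 10 for each of atf1Δ, pcr1Δ and clr4Δ, and the level of clr4Δ gave 2316 genes; against WT of series RNA2 alone they gave 128, 126 and 1 genes and 0 of the 10 for atf1Δ and clr4Δ, and the level gave 230 genes and 2 of the 10.

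Among single values of the 10 genes that passed the threshold in at least 1 fit of all libraries, signs turned with library totals alone for vgl1 at 5 min in series RNA1 (-0.02) and hri2 at 25 against 5 min (0.05). They turned with WT of series RNA2 alone for the responses of hri1 (0.05), ded1 (-0.06) and nxt3 (-0.01) with atf1Δ, hri2 (0.05) and ded1 (-0.11) with pcr1Δ, and hri2 (0.21) and nxt3 (-0.02) with clr4Δ, and with WT of series RNA1 alone for the unheated level of pab1 with atf1Δ (-0.26) and pcr1Δ (-0.08). The cause was not tested. With 1 library left out, counts of all genes ran from 48 to 168 and 477 to 1004 (series RNA2, 2.5 against 0 and 5 against 2.5 min), 40 to 120 and 651 to 1000 (clr4Δ, the same), 64 to 265 (response, clr4Δ minus WT) and 827 to 1576 (level, clr4Δ against WT). Counts of the 10 genes ran from 1 to 3 (series RNA2, 5 against 2.5 min), 3 to 6 (clr4Δ, 5 min), 0 to 3 (responses of atf1Δ and of pcr1Δ minus WT), 2 to 5 (levels, clr4Δ against WT and WT RNA2 against RNA1) and 3 to 5 (level, pcr1Δ against clr4Δ).

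Of 121 single values of the 10 genes that passed the threshold in at least 1 fit of all libraries, all 121 kept direction and call with DESeq2 size factors and with no filter, 96 with library totals alone, 108 with only the compared groups and 113 with DESeq2. With the block, 55 of 84 did and 29 gained a call, and the block ended no call. Of 1020 values of these without 1 library, 949 did, 53 lost and 18 gained a call, and none turned. Values that never passed were not followed singly, and their signs changed 159 times over all alternatives, left-out libraries included. The lowest count of the 10 genes in a library was 187, for hri1.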
